A study of Mus musculus with 6 samples.

Results

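The 31 genes described here are markers of monocytes and of Kupffer cells, the resident macrophages of the liver, measured in RNA of innate lymphocytes from that organ. They were listed by name, with earlier results of these libraries known, and all 31 were among the 23942 genes of the deposited table. They were grouped by the cell that each is best known to mark, as 6 Kupffer cell genes, 8 classical monocyte genes, 6 non-classical monocyte genes and 11 general genes shared by macrophages and monocytes. The libraries came from mouse liver, with 3 labelled as naive group 1 innate lymphoid cells (ILC1s) given solvent and named day 0, and 3 labelled as memory ILC1s given an agent called OXA and named day 30. The labels do not spell out OXA, give the cells as lymphocytes, and give no strain, genotype, age or sort gate. No library combines solvent with day 30, so the effects of agent and day cannot be told apart.

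Monocytes leave the bone marrow and circulate as classical cells, which carry Ly6C and enter tissues, and as non-classical cells, which patrol the vessel wall. Kupffer cells sit inside the liver sinusoids, the same vessels in which ILC1s reside, where they clear particles, bacteria and old red cells. Genes such as Clec4f, Vsig4 and Timd4 mark the Kupffer cell, whereas Marco, Lyz2 and Cd68 are shared more widely among phagocytes.

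Libraries held 18697093 to 23795266 assigned reads, recovered from the deposited values. The values were RPKM, reads scaled to exon length and to library size, so levels can be compared between genes per length. Most of the defining ILC1 and natural killer genes were abundant in both groups. Ncr1 (NKp46) was at 481 to 499 RPKM in naive and 498 to 520 RPKM in memory libraries. Eomes and Itga2 were far lower, at 0.81 and 5.91 RPKM by naive means and 1.19 and 6.04 RPKM by memory means. Tbx21 (T-bet), which ILC1s need to develop, stood at 68.2 to 76.2 RPKM in naive and 71.1 to 72.6 RPKM in memory libraries. Of 10 such genes, 1, the chemokine receptor gene Cxcr6, was called lower (58.8 and 48.0 RPKM by group means, limma adjusted p = 0.0144) and none higher. Leaving out naive replicate 1, naive replicate 2, memory replicate 1 or memory replicate 3 ended the call, with adjusted p reaching 0.0657. "Called" means past an adjusted p of 0.05 in a limma fit across the 13793 genes whose mean over all 6 libraries reached 0.5 RPKM. Of all tested genes, 4.17% were called. A gene with a mean under 0.5 RPKM in 1 group passed this filter only if the other group was higher. The direction of its change was thus fixed by the filter.

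All 31 genes had a higher mean in memory than in naive libraries. The median size of the difference varied between the groups of genes, although their ranges overlapped. The median ratio of mean memory to mean naive RPKM was 10.1 for the classical monocyte genes, 8.19 for the non-classical monocyte genes, 3.88 for the general genes and 1.32 for the Kupffer cell genes, against 1.01 over all genes tested. The ratio was under 2 for 5 genes, and all 5 were Kupffer cell genes. It was 8 or more for 12 genes, of which 7 were classical monocyte, 3 non-classical monocyte and 2 general genes. The ratio ran from 1.10 to 5.93 for Kupffer cell genes and from 2.15 to 26.8 for classical monocyte genes. For non-classical monocyte genes it ran from 6.14 to 15.2, and for general genes from 2.00 to 11.85. The members were listed with this contrast known, so these values describe the libraries and no test compared the groups of genes.

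**Figure D1:**
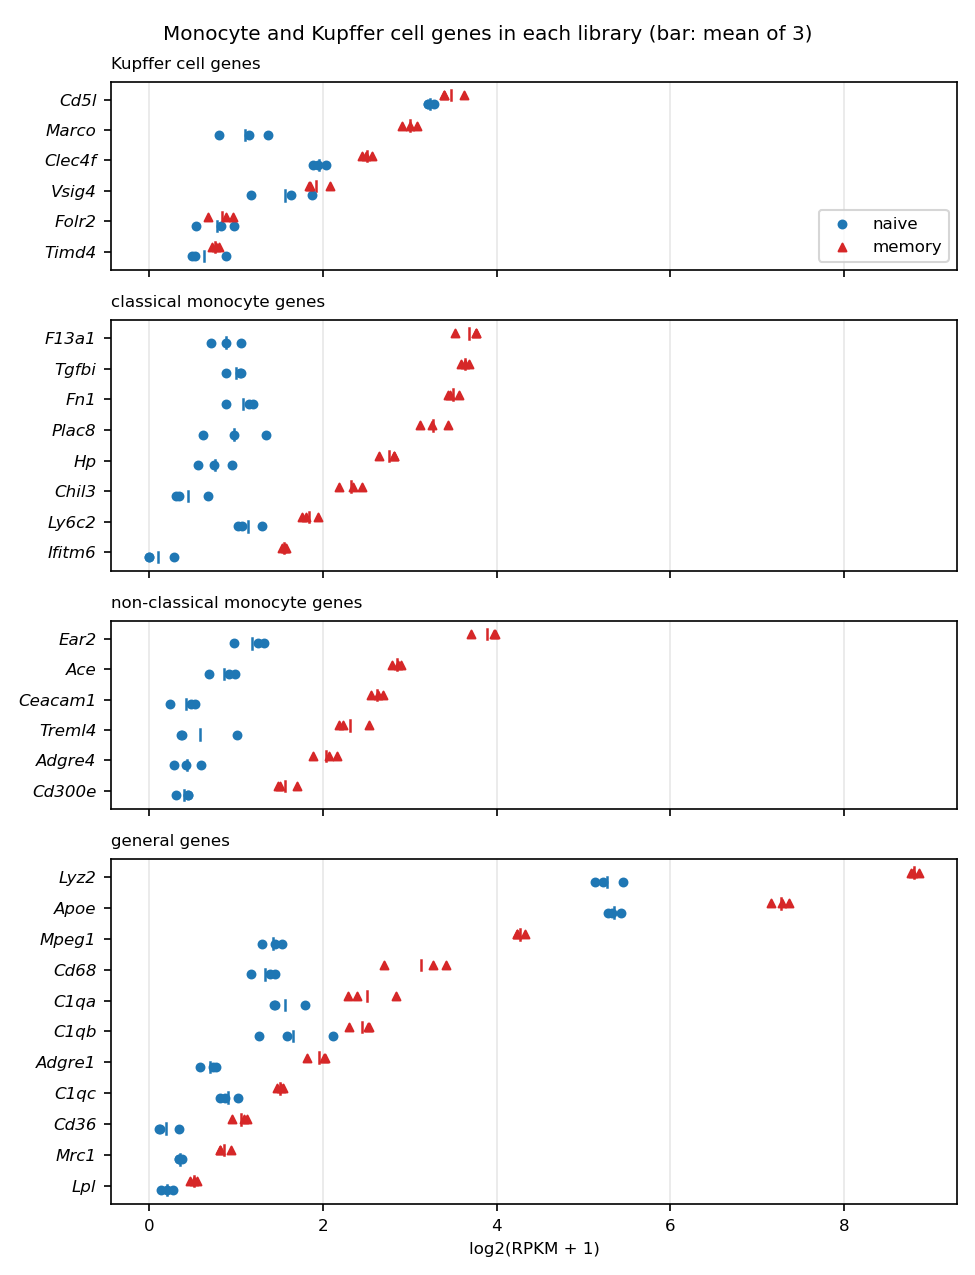
Level of each of the 31 genes on the log2(RPKM + 1) scale in the 3 naive libraries (circles) and 3 memory libraries (triangles), by gene group, with a bar at each mean. The groups of libraries overlap for 3 Kupffer cell genes and for none of the other 28 genes.

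The 3 memory libraries lay above the 3 naive libraries, without overlap, for 28 of the 31 genes, where 14.9% of all tested genes showed that pattern. In the fit, 24 of the 30 members that passed the filter were called higher and none lower. Over all tested genes 3.2% were called higher and 0.972% lower. Since this contrast was known when the genes were listed, nothing is read from the 24 against those shares. Nor is anything read from whether the call on a member held with a library left out. Lpl did not pass the filter. Ifitm6, Chil3, Cd300e, Adgre4, Ceacam1, Cd36 and Mrc1 had naive means under 0.5 RPKM and passed it only through the memory libraries.

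Marco, F13a1 and Treml4 are given with the DNA around their start, together with Clec4f and Lyz2, to show a Kupffer cell gene with a small and one with a large difference, a gene of each kind of monocyte and the most abundant member in memory libraries. Each window runs from 250 bases before to 50 bases after the gene's start, 5′ to 3′ on the gene's strand, in RefSeq build GRCm38.p6. Capitals mark GAGGAA or its reverse complement, the core bound by PU.1, the factor that macrophages and monocytes need to form. The Marco window (chr1:120504975-120505274, minus strand) and the F13a1 window (chr13:37049164-37049463, minus strand, 1 of 2 starts) each hold 1 match. The Treml4 window (chr17:48264045-48264344, plus strand) holds 2 matches, whereas the Clec4f window (chr6:83656067-83656366, minus strand) and the Lyz2 window (chr10:117282223-117282522, minus strand) hold 0. Among other members, the window of Mpeg1, with a ratio of 10.8, also holds 0. Windows of Ceacam1, with a ratio of 15.2, and of Vsig4 and Cd5l, with ratios of 1.4 and 1.2, hold the motif. Whether matches go with the size of the difference was not tested.
Marco: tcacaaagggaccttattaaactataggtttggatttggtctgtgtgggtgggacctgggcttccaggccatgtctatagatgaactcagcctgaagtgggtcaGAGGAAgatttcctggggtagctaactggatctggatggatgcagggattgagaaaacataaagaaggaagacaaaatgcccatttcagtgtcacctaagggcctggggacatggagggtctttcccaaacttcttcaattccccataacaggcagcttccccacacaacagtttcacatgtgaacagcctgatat
F13a1: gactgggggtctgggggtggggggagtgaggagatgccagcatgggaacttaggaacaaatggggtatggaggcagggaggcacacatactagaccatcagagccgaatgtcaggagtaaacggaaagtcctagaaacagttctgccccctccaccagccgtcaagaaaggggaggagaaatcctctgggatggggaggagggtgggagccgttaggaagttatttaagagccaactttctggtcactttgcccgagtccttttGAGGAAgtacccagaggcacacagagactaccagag
Treml4: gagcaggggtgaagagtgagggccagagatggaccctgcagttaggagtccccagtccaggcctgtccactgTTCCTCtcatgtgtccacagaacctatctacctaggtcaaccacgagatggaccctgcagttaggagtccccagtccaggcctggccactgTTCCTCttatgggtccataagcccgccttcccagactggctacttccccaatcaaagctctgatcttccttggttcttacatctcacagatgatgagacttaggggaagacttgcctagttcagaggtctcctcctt
Clec4f: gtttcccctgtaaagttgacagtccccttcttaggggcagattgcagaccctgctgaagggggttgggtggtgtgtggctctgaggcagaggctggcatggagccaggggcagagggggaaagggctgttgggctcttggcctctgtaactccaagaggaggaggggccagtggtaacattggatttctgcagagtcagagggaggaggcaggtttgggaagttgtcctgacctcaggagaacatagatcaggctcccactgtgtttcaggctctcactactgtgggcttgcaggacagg
Lyz2: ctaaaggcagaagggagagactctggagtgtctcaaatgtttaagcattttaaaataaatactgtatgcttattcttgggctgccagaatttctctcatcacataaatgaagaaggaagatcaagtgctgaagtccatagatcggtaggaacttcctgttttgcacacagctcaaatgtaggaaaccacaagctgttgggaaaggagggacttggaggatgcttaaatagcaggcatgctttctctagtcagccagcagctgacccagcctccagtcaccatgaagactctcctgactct

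RefSeq start windows were matched by symbol for 26 of the 31 genes. GAGGAA, read on both strands, was in a window of 15 of those 26 genes (57.7%), against 28.3% of all 32851 windows and 30.3% of tested genes with a window. By group it was in 3 of 6 Kupffer cell, 3 of 6 classical monocyte, 4 of 6 non-classical monocyte and 5 of 8 general genes. TTNNGNAA, a loose form of the C/EBP site, was in 21 of 26 (80.8%), against 40.7% of all windows and 36.0% of tested genes, and in all 6 matched classical monocyte genes. CACCC, a KLF core, was in 20 of 26 (76.9%), against 57.5% of all windows and 65.8% of tested genes, and in all 6 Kupffer cell genes. Of the other 4 motifs searched, the composite site of PU.1 with an IRF factor was in 4 of 26 genes. It was in 2.7% of all windows and 3.0% of tested genes. The longer PU.1 site AGAGGAAGT was in 1 of 26 (1.0% of all windows and 1.5% of tested genes). The MAF site with its spacer was in 1 (0.3% of both) and the LXR direct repeat with a spacer of 4 bases in 0. AGAGGAAGT contains GAGGAA, so those matches overlap. A match is a run of letters in a window, not a bound site, and many of the matches are to short motifs that are common in all genes.

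Of the 6 Kupffer cell genes, 5 had a memory mean of 1.10 to 1.62 times the naive mean, and for Marco the ratio was 5.93. Clec4f encodes the C-type lectin that defines mouse Kupffer cells (chromosome 6, 83644542 to 83656187, mm10), and was at 2.86, 3.10 and 2.68 RPKM in naive replicates 1 to 3 and at 4.93, 4.46 and 4.65 in memory replicates 1 to 3. The groups did not overlap, and the memory mean (4.68 ± 0.24, SD, n = 3) was 1.62 times the naive mean (2.88 ± 0.21, n = 3). Cd5l, a secreted scavenger-receptor protein that protects macrophages from death, was the most abundant of the 6, at 8.25, 8.69 and 8.27 RPKM in naive and 9.53, 9.49 and 11.3 RPKM in memory libraries. The gap between the groups was narrow, since the lowest memory library was at 1.09 times the highest naive one.

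Vsig4, the complement receptor by which Kupffer cells catch bacteria, was at 2.67, 1.26 and 2.10 RPKM in naive and 3.24, 2.61 and 2.58 RPKM in memory libraries. Naive replicate 1 lay above memory replicates 2 and 3, so the groups overlapped. Timd4, a receptor for phosphatidylserine on dying cells and a marker of embryo-derived Kupffer cells, was at 0.837, 0.407 and 0.436 RPKM in naive and 0.737, 0.696 and 0.649 RPKM in memory libraries, with naive replicate 1 the highest of all 6. These values rest on 18 to 36 reads per library. Folr2, a folate receptor of resident macrophages, was at 0.969, 0.445 and 0.765 RPKM in naive and 0.944, 0.598 and 0.847 RPKM in memory libraries. Naive replicate 1 was again the highest, and the log2 difference of 0.06 on the log2(RPKM + 1) scale turned negative without naive replicate 2 (-0.06) and under quantile normalization (-0.04).

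Marco, a scavenger receptor for bacteria and particles that other macrophages also carry, was at 1.22, 1.58 and 0.738 RPKM in naive and 7.48, 7.03 and 6.52 RPKM in memory libraries (chromosome 1, 120474538 to 120505024). Every memory library was at least 4.12 times the highest naive library, and the ratio of means was 5.93. Clec4f and Marco were the 2 called genes of the 6. Without naive replicate 1, or without any 1 of the memory replicates, the count was 1, as the call on Clec4f was lost. The summed level of the other 5 genes was 13.9 to 15.6 RPKM in naive and 17.85 to 20.01 RPKM in memory libraries.

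**Figure D2:**
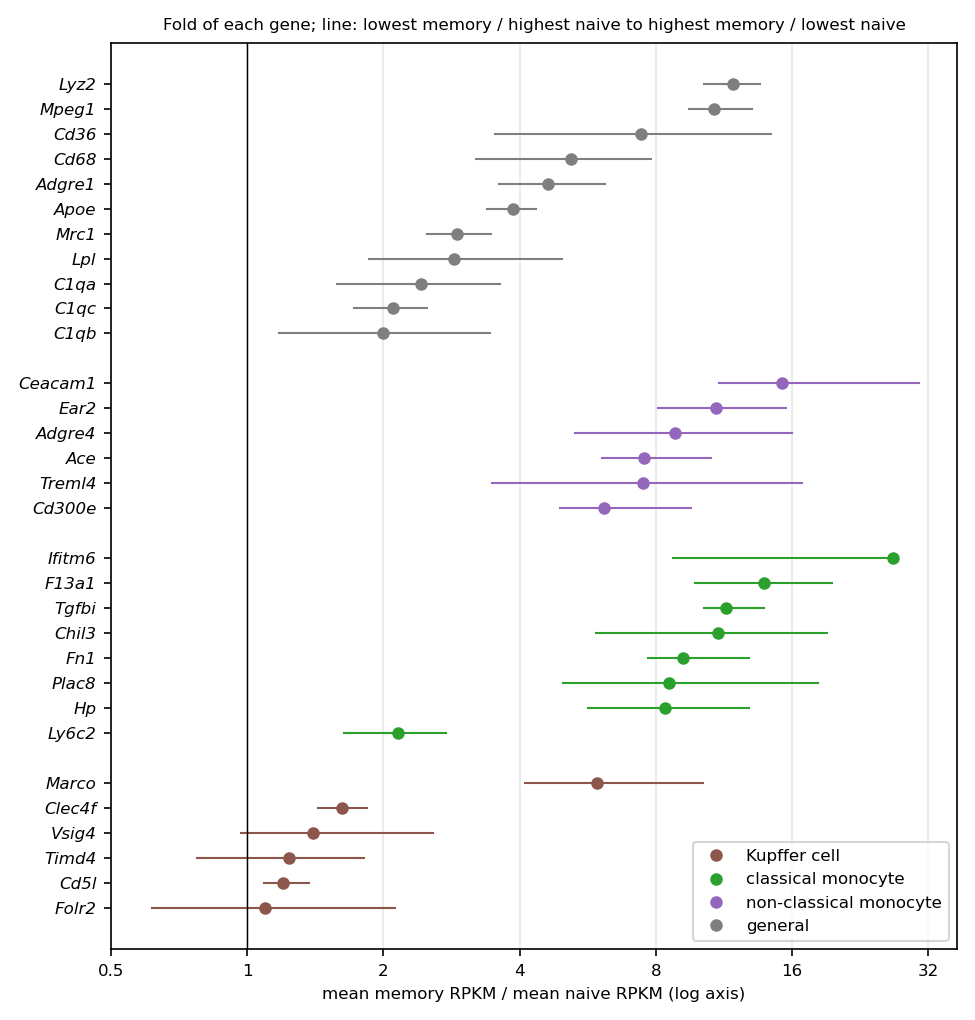
Ratio of mean memory to mean naive RPKM for each gene (points, log axis), coloured by gene group, with lines from the lowest memory over the highest naive library to the highest memory over the lowest naive library. For Ifitm6 the upper end is not drawn because 2 naive libraries were at 0; the 5 Kupffer cell genes other than Marco lie between 1.10 and 1.62.

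Classical monocyte genes were higher in every memory library than in any naive library. F13a1, the coagulation factor subunit made by monocytes (chromosome 13, 36867178 to 37050244), was at 1.08, 0.638 and 0.844 RPKM in naive and 12.5, 10.5 and 12.5 RPKM in memory libraries. The memory mean was 13.9 times the naive mean, and the lowest memory library stood at 9.75 times the highest naive one. Tgfbi, a matrix protein induced by TGF-beta, was at 1.08, 1.06 and 0.848 RPKM in naive and 11, 11.4 and 11.8 RPKM in memory libraries, a ratio of means of 11.4. Fn1, the matrix protein fibronectin, was at 0.847, 1.28 and 1.22 RPKM in naive and 9.86, 10.02 and 10.9 RPKM in memory libraries. These 3 genes were tight within the memory group, with coefficients of variation of 9.9%, 3.3% and 5.4%.

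Plac8, a small protein of monocytes and other blood cells, was at 0.537, 0.957 and 1.55 RPKM in naive and 8.54, 7.71 and 9.81 RPKM in memory libraries. Hp, the haemoglobin-binding protein haptoglobin made by hepatocytes and monocytes, was at 0.932, 0.673 and 0.471 RPKM in naive and 6.04, 6.07 and 5.27 RPKM in memory libraries. Chil3, a chitinase-like secreted protein, was at 0.262, 0.603 and 0.232 RPKM in naive and 4.44, 4.07 and 3.55 RPKM in memory libraries. Their ratios of means were 8.57, 8.37 and 11, with naive values that varied more than memory values (coefficients of variation of 33.4% to 56.3% against 7.8% to 12.2%).

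Ifitm6, a member of the interferon-induced transmembrane family found in myeloid cells, had 0, 4 and 0 reads in naive libraries and 38, 42 and 34 reads in memory libraries. Its level in memory was 1.98, 1.95 and 1.89 RPKM. The naive side is near the floor of 3 reads, and the ratio of means, 26.8, rests on those 4 reads. Ly6c2, which encodes Ly6C, the surface antigen that names the classical monocyte (chromosome 15, 75108158 to 75111970), differed least of the 8. It was at 1.46, 1.09 and 1.04 RPKM in naive and 2.49, 2.39 and 2.85 RPKM in memory libraries, 2.15 times by the means. Leaving out any 1 library other than naive replicate 1 ended the call on Ly6c2 and left 7 of the 8 genes called.

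Non-classical monocyte genes showed ratios of means from 6.14 to 15.2, and in none of the 6 did the groups overlap. Ceacam1, an adhesion molecule that activated lymphocytes can also carry (chromosome 7, 25461707 to 25477603), was at 0.442, 0.398 and 0.179 RPKM in naive and 4.89, 5.46 and 5.18 RPKM in memory libraries. Ear2, an eosinophil-associated ribonuclease that marks patrolling monocytes, was at 1.49, 0.957 and 1.38 RPKM in naive and 12, 14.8 and 14.7 RPKM in memory libraries. Adgre4, an adhesion receptor of the family of F4/80, was at 0.337, 0.507 and 0.217 RPKM in naive and 3.21, 2.68 and 3.48 RPKM in memory libraries. These were the 3 largest ratios of the group, at 15.2, 10.9 and 8.83.

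Ace, the angiotensin-converting enzyme, was at 0.607, 0.893 and 0.976 RPKM in naive and 6.44, 6.30 and 5.93 RPKM in memory libraries (chromosome 11, 105967945 to 105989964). Treml4, a receptor of the TREM family, was at 1.02, 0.295 and 0.284 RPKM in naive and 4.78, 3.68 and 3.53 RPKM in memory libraries. Within each group replicate 1 was the highest for Treml4, and naive replicate 1 was at more than the sum of the other 2 naive libraries. Cd300e, an activating receptor of monocytes, was at 0.359, 0.235 and 0.363 RPKM in naive and 2.25, 1.83 and 1.79 RPKM in memory libraries. All 6 genes were called, and all 6 stayed called when any 1 library was left out, given as a description only.

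Among the general genes, Lyz2 and Apoe were far more abundant than the rest, in naive libraries already. Lyz2, the lysozyme of phagocytes (chromosome 10, 117277334 to 117282274), was at 36.5, 34.1 and 42.8 RPKM in naive and 442, 464 and 437 RPKM in memory libraries. Its level was 0.0704 to 0.089 of that of Ncr1 in naive libraries and 0.84 to 0.931 of it in memory libraries. Apoe, the lipoprotein that carries lipid from macrophages and hepatocytes (chromosome 7, 19696109 to 19699188), was at 37.9, 39.3 and 42.1 RPKM in naive and 164, 156 and 143 RPKM in memory libraries. In naive libraries Lyz2 and Apoe held similar shares of the summed level of the 31 genes, 31.4% to 36.3% and 33.9% to 36.2%. In memory libraries Lyz2 held 58.0% to 59.6% and Apoe 19.2% to 21.6%.

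Mpeg1, the pore-forming protein perforin-2 of phagocytes, was at 1.46, 1.88 and 1.74 RPKM in naive and 17.8, 17.9 and 19.0 RPKM in memory libraries, a ratio of means of 10.8 that lay near the 11.8 of Lyz2. Cd68, a lysosomal membrane protein of macrophages, was at 1.62, 1.72 and 1.24 RPKM in naive and 5.50, 8.63 and 9.70 RPKM in memory libraries. Memory replicate 1 was well below the other 2 for Cd68, the widest relative spread of any of the 31 genes within the memory group (coefficient of variation 27.4%). Adgre1, the gene of F4/80, was at 0.494, 0.667 and 0.700 RPKM in naive and 3.03, 3.06 and 2.52 RPKM in memory libraries, a ratio of 4.62.

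The 3 lowest general genes are receptors and an enzyme of lipid or sugar uptake. Cd36, a scavenger receptor that takes up fatty acids and oxidised lipoprotein, was at 0.0894, 0.0822 and 0.264 RPKM in naive (6, 6 and 20 reads) and 0.931, 1.18 and 1.12 RPKM in memory libraries. Mrc1, the mannose receptor CD206, was at 0.269, 0.301 and 0.267 RPKM in naive and 0.761, 0.752 and 0.925 RPKM in memory libraries. Lpl, lipoprotein lipase, was at 0.148, 0.0938 and 0.203 RPKM in naive and 0.377, 0.433 and 0.466 RPKM in memory libraries. The groups did not overlap for any of the 3, although the levels were low.

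C1qa, C1qb and C1qc encode the 3 chains of C1q, the protein that starts the classical complement pathway and that macrophages, Kupffer cells among them, make in quantity. The genes are neighbours on chromosome 4, between 136880129 and 136898803. C1qa was at 1.70, 2.46 and 1.73 RPKM in naive and 4.25, 6.14 and 3.88 RPKM in memory libraries. C1qb was at 3.34, 1.99 and 1.39 RPKM in naive and 3.94, 4.79 and 4.72 RPKM in memory libraries, and C1qc was at 1.02, 0.764 and 0.833 RPKM in naive and 1.85, 1.76 and 1.90 RPKM in memory libraries. The ratios of means were 2.42, 2.00 and 2.10, below those of the other 8 general genes. The summed level of the 3 chains was 3.95 to 6.07 RPKM in naive and 10.04 to 12.7 RPKM in memory libraries. C1qc held the smallest share of that sum in all 6 libraries (13.9% to 21.1%).

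**Figure D3:**
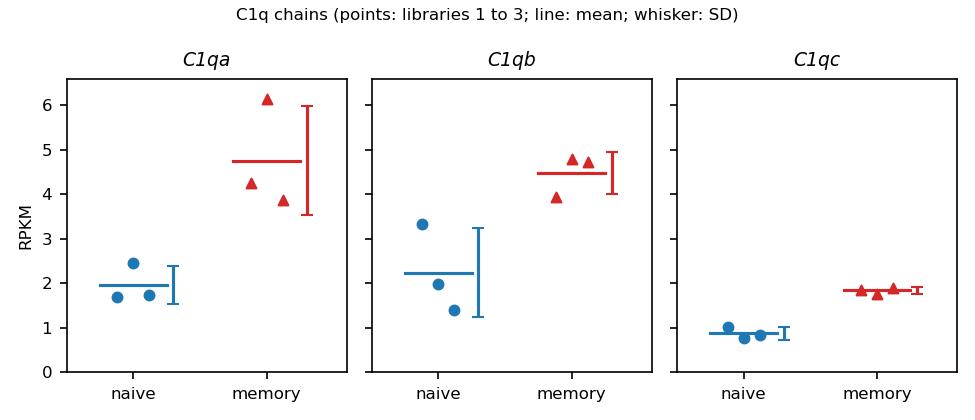
Level (RPKM) of the 3 C1q chain genes in naive and memory libraries, with points for replicates 1 to 3 from left to right, a line at the mean and a whisker of 1 SD (n = 3). No naive point reaches a memory point of the same gene, and naive replicate 1 of C1qb, at 3.34, comes nearest to one.

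Of the 10 general genes that passed the filter, 8 were called, and C1qb and Mrc1 were not. The count was 7 without naive replicate 1, 5 without naive replicate 2, 6 without naive replicate 3, 6 without memory replicate 1 and 5 without memory replicate 2 or 3. C1qa lost its call without any 1 library, C1qc without any but naive replicate 1, and Cd36 without naive replicate 1 or 2 or memory replicate 3, and Cd36 fell below the filter without memory replicate 2. C1qb was called without naive replicate 1. Summed over all 31 genes, the level was 109 to 118 RPKM in naive and 743 to 778 RPKM in memory libraries, and the share of all reads was 0.0216% to 0.0231% in naive libraries and 0.138% to 0.142% in memory libraries.

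The ratio of summed Kupffer cell to summed monocyte genes did not overlap between the groups. It is a description, since the members were listed with this contrast known. The 6 Kupffer cell genes summed to 15.0 to 16.8 RPKM in naive and 24.9 to 26.9 RPKM in memory libraries. Of these sums, Cd5l made 8.25 to 8.69 and 9.49 to 11.3 RPKM, and Marco 0.738 to 1.58 and 6.52 to 7.48 RPKM. The 8 classical monocyte genes summed to 6.20 to 6.53 RPKM in naive and 54.1 to 58.6 RPKM in memory libraries, and the 6 non-classical genes to 3.29 to 4.25 and 33.6 to 34.8 RPKM. The Kupffer cell sum was therefore 2.37 to 2.71 times the classical monocyte sum in naive libraries and 0.453 to 0.472 times it in memory libraries. The classical over non-classical ratio overlapped between the groups, at 1.46 to 1.99 in naive and 1.55 to 1.69 in memory libraries. Counted over all 31 genes, the highest values were spread over the libraries: in naive libraries replicates 1 to 3 were the highest of their group for 12, 11 and 8 genes, and in memory libraries for 11, 8 and 12 genes. Among the 6 Kupffer cell genes, memory replicate 1 was the highest of its group for 5 and naive replicate 3 for 0. In bulk RNA, more cells of a type and more RNA of its genes per cell cannot be told apart.

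**Figure D4:**
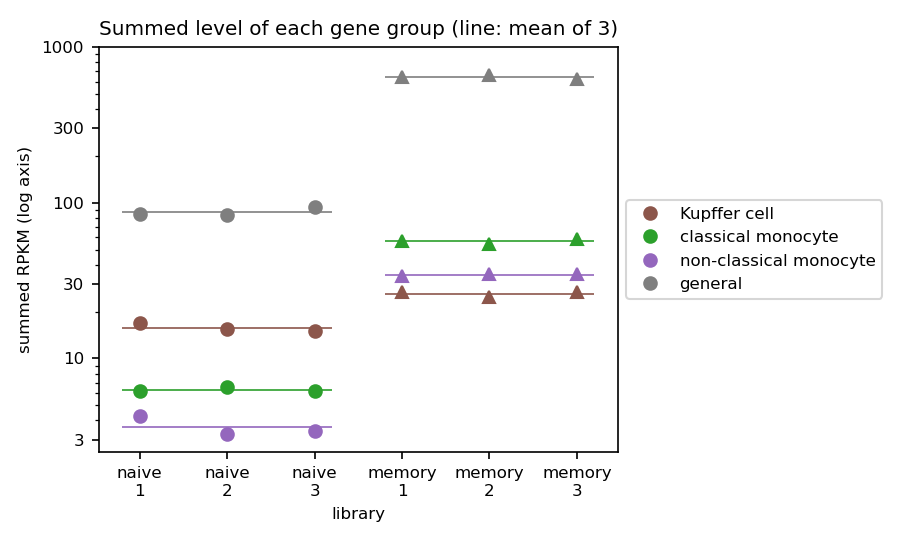
Summed RPKM (log axis) of the genes of each group in each library, with circles for naive and triangles for memory libraries and a line at each mean. The Kupffer cell sum is above both monocyte sums in the naive libraries (15.0 to 16.8 RPKM) and below both in the memory libraries (24.9 to 26.9 RPKM).

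Other genes of the same cells, not among the 31, were drawn from lists written from general knowledge, with earlier results of these libraries known. Nothing is therefore read from the counts of called genes in these or the later lists. Some called genes, with naive means under 0.5 RPKM, could enter the test only as higher. Among them were Slc11a1, Clec4a1, Tppp3, Cd300a, Lrp1, Csf3r and Cd209a. Among all genes tested, 3.2% were called higher and 0.972% lower. Of the 13 tested other Kupffer cell genes, 1 was called higher and none lower, with a median log2 change of 0.32 against 0.02 over all genes tested. The called gene was Slc11a1, the phagosome metal transporter NRAMP1, which neutrophils and monocytes also carry (0.277 and 1.48 RPKM by group means, limma adjusted p = 0.0108). Leaving out naive replicate 2, memory replicate 2 or memory replicate 3 ended that call, with adjusted p reaching 0.063. With voom on the recovered reads 5 of the list were called. Of the 13, 12 had a positive change. Memory exceeded naive libraries without overlap for, among others, Nr1h3, a nuclear receptor for oxysterols (0.309 and 0.89 RPKM by group means), Slc15a3, a lysosomal peptide transporter (0.365 and 1.10 RPKM), Cd163, the haemoglobin scavenger receptor (0.466 and 0.939 RPKM), and Hmox1, the haem-degrading enzyme (1.65 and 3.18 RPKM), none of them called. Fcna, a ficolin of Kupffer cells and the 1 tested gene with a negative change, was at 3.04, 2.86 and 2.76 RPKM in naive and 3.29, 3.73 and 1.39 RPKM in memory libraries and was not called. Spic, the factor of iron-recycling macrophages, had 8, 2 and 2 reads in naive replicates and 18, 16 and 6 reads in memory replicates.

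Of 14 tested other classical monocyte genes, 6 were called higher and none lower (median log2 change 0.61). Emilin2, a matrix glycoprotein, was at 1.34 ± 0.286 RPKM in naive and 11.01 ± 0.175 RPKM in memory libraries (SD, n = 3 each; log2 change 2.37, SE 0.10, limma adjusted p = 5.48e-05). Cebpb, a factor of monocyte differentiation, was at 7.26 and 13.7 RPKM by group means (limma adjusted p = 0.0018). Clec4a1, a C-type lectin of monocytes, was at 0.446 and 3.52 RPKM (limma adjusted p = 0.00267). Ccr2, the chemokine receptor by which monocytes leave the marrow and which ILC1s also express, was not called. It was at 65.2 to 68.0 RPKM in naive and 66.7 to 68.8 RPKM in memory libraries. S100a4 was at 289 and 308 RPKM by group means and was not called. Of the 14 tested genes, 13 had a positive change, and S100a6 had a negative one (42.1 and 38.2 RPKM, not called). S100a8, also on the neutrophil list, had 0, 2 and 2 reads in naive and 0 in every memory library. S100a9 had 4, 2 and 0 reads in naive and 6, 0 and 4 in memory libraries. Neither passed the filter.

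Of 17 tested other non-classical monocyte genes, 8 were called higher and none lower (median log2 change 0.43). Tppp3, a tubulin-binding protein, was at 0.434 and 5.31 RPKM by group means (limma adjusted p = 0.000117), Klf4 at 0.686 and 4.08 RPKM (adjusted p = 0.000253 in limma), Cx3cr1, the fractalkine receptor, at 0.665 and 5.56 RPKM (limma adjusted p = 0.000772), and the inhibitory receptor gene Cd300a at 0.26 and 2.25 RPKM (limma adjusted p = 0.000932). The most abundant genes of that list, Spn (CD43) and Stk10, a kinase of lymphocytes, were not called. Among 14 tested receptors and factors shared by macrophages, 6 were called higher and none lower. Spi1, the gene of PU.1, was at 1.51, 1.04 and 0.88 RPKM in naive and 8.21, 8.34 and 8.49 RPKM in memory libraries (log2 change 2.14, SE 0.12, limma adjusted p = 0.000177). Csf1r, the receptor for macrophage colony-stimulating factor, was at 1.42 and 11.1 RPKM by group means, and Aif1 (IBA1) at 0.975 and 6.18 RPKM (limma adjusted p = 0.000108 and 0.000124). The calls on Emilin2, Cebpb, Clec4a1, Tppp3, Klf4, Cx3cr1, Cd300a, Spi1, Csf1r and Aif1 held when any 1 library was left out.

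**Figure D5:**
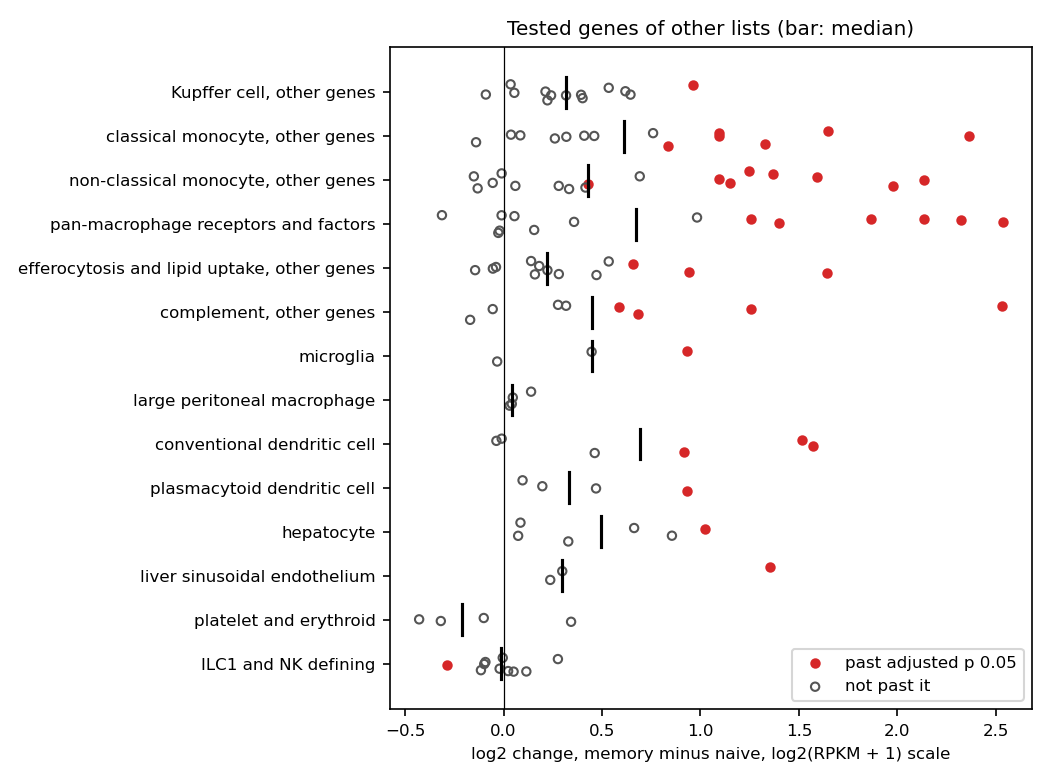
Log2 change (memory minus naive, log2(RPKM + 1) scale) of the tested genes in lists other than the 31 members, for lists with at least 3 tested genes, with filled points past an adjusted p of 0.05 in limma, open points not past it and a bar at each list's median. The other Kupffer cell list has 1 filled point of 13 and the other non-classical monocyte list 8 of 17.

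Complement and lipid uptake genes beyond C1q, Cd36 and Lpl were measured too. Of 8 tested complement genes, 4 were called higher and none lower. The count was 2 with any 1 library left out, the call on Cfb being among those lost (limma adjusted p up to 0.113). C3, the central complement protein, was at 0.92, 1.17 and 0.98 RPKM in naive and 11.5, 10.6 and 9.92 RPKM in memory libraries (limma adjusted p = 2.29e-05), whereas C1ra, which encodes a protease that binds C1q, had 2 to 6 reads in every library. Of 13 tested genes of efferocytosis and lipid uptake, the uptake of dying cells and of lipoproteins, 3 were called higher and none lower. The count was 2 without any 1 naive replicate or memory replicate 1, and 1 without memory replicate 2 or 3. Scarb1 lost its call without any 1 naive replicate (limma adjusted p up to 0.107) and fell below the filter without any 1 memory replicate, and Msr1 lost its call without memory replicate 2 or 3 (limma adjusted p up to 0.062). Lrp1, a receptor for apolipoprotein E, was at 0.451 and 3.53 RPKM by group means (limma adjusted p = 0.000165). Mertk, the receptor tyrosine kinase by which Kupffer cells take up dying cells, was at 0.148, 0 and 0.0655 RPKM in naive and 0.369, 0.291 and 0.256 RPKM in memory libraries, below the filter.

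Markers of other cells that liver preparations could hold differed in how they moved with the 31 genes. The neutrophil list summed to 0.466 to 0.89 RPKM in naive and 2.12 to 2.70 RPKM in memory libraries, and 7 of its 10 measured genes had 3 reads or fewer in at least 5 libraries, among them S100a8, Camp, Ltf and Mpo. Mmp8, a neutrophil collagenase of the same list, had 0, 4 and 2 reads in naive and 30, 30 and 36 reads in memory libraries, below the filter, and 2 genes of the list were called with no filter. Csf3r, the neutrophil growth factor receptor that monocytes also carry, was its 1 tested gene. Csf3r passed the filter only through the memory libraries and was called higher (0.17 and 1.55 RPKM by group means, limma adjusted p = 0.00356). Of 6 tested conventional dendritic cell genes, 3 were called higher, among them Cd209a (0.189 and 2.55 RPKM, limma adjusted p = 0.00319). The other two, Batf3 and Clec10a, were less stable. Batf3 lost its call when memory replicate 3 was left out (limma adjusted p = 0.0509), and Clec10a when naive replicate 2, naive replicate 3, memory replicate 1 or memory replicate 2 was (limma adjusted p up to 0.0689). Clec10a fell below the filter without memory replicate 3, where 1 gene of the list was called. Clec9a, which marks the cross-presenting dendritic cell, had 0 reads in every naive library and 9, 12 and 23 reads in memory libraries. The list summed to 83.5 to 88.7 RPKM in naive and 91.4 to 93.6 RPKM in memory libraries, most of it Snx22, at 80.4 to 85.9 RPKM across libraries.

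All 6 tested hepatocyte genes had a positive change, and 1, Alb, was called higher (1.40 and 3.86 RPKM by group means, limma adjusted p = 0.0336). That call was lost without any library but naive replicate 3 (limma adjusted p up to 0.11). The list summed to 24.5 to 27.2 RPKM in naive and 32.3 to 35.03 RPKM in memory libraries. Most of it was Trf, at 20.9 to 22.7 and 22.4 to 24.3 RPKM. Apoa1 (0.457 and 1.32 RPKM by group means) and Serpina1a (0.769 and 2.23 RPKM) were higher in memory libraries without overlap but were not called. Of 3 tested endothelial genes, Fcgr2b, an Fc receptor shared with macrophages, was called higher, whereas Lyve1 had 0 to 8 reads. The endothelial list summed to 15.7 to 18.2 RPKM in naive and 22.9 to 23.9 RPKM in memory libraries. Most of it was Pecam1, at 14.1 to 16.5 and 18.2 to 18.8 RPKM. The 8 stellate cell genes summed to 0.075 to 0.234 RPKM in any library and none passed the filter. The part that these other cells have in the values of the 31 genes was not tested.

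Some members have close relatives. Of the 50-base stretches in the annotated transcripts of each gene (GENCODE M21), 15.4% of those of Lyz2 also occur in another gene, Lyz1, and the share was 41.5% for Ear2, 30.4% for Ceacam1, 26.9% for Chil3 and 14.4% for Ly6c2. It was at most 1.14% for the other 26 members. Lyz1 had 0, 0 and 2 reads in naive and 63, 33 and 36 reads in memory libraries (limma adjusted p = 0.0118, and 0.0551 without naive replicate 2), against 10980 to 13964 reads for Lyz2 in memory libraries. Ceacam2 was at 0.0083 and 0.143 RPKM by group means and Ly6c1 had 2 reads in all. The treatment of reads that match more than 1 gene is not stated in the labels, so the levels of these 5 members are less certain than the others. Exons of Folr2, Fn1 and Ace overlap those of another gene on the opposite strand.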

How the data were processed

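The RNA of 6 libraries of mouse liver ILC1s, 3 naive and 3 memory, was measured by sequencing of a stranded mRNA library made from TRIzol extracts, per the labels' protocols. The authors deposited a single table of RPKM values with exon positions and lengths, per the file headers. The submitters' processing notes list, without roles, build mm10, edgeR 3.12.1, the aligner STAR 2.5.3a, Subread 1.5.1 and featureCounts. Neither the strand setting of the counting nor molecular identifiers are stated there. The labels gave the groups and replicate numbers, and no batch.

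Each value times exon length was a multiple of 1 step per library, which gave whole reads for 100% of values (tolerance 0.001 of a read), and 69.8% to 72.3% of counts from 1 to 10 were even. The floor of 3 reads was 0.126 to 0.16 RPKM at 1 kilobase, and such floors cover counting error only. No 2 libraries agreed within counting noise (chi-square per gene of at least 4.93), and all 6 were kept. Low counts were mostly even, so reads may not be independent, whereas the floor, this chi-square and voom treat them as independent.

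The test was limma-trend (limma 3.58.1, R 4.3.3) on log2(RPKM + 1), a scale that understates changes of low genes, for the 13793 genes whose mean reached 0.5 RPKM, with Benjamini-Hochberg adjustment and a threshold of 0.05. It was first tested on simulated data. Separate animals are not named for the replicates, and p-values therefore reflect only library-to-library spread, which may be technical.

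The members and the gene lists were chosen with earlier results of these data known. All members were named. From the other lists, named genes were taken from the 4 tested genes with the smallest adjusted p and the 2 most abundant per list. The ILC1 and natural killer genes and close relatives of members were also eligible. Fcna, Cd163, Mmp8, Spic, Mertk, C1ra, Clec9a, Lyve1, S100a6, S100a8, S100a9, Camp, Ltf and Mpo were named after their values were seen. Results on some listed genes are not reported here. Figures used Python 3.11.15 and matplotlib 3.10.9.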

Additional observations from a re-analysis of the deposited data

How the results depend on the processing

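All 30 tested members kept a positive change under all 14 alternatives that gave a value, except Folr2 under quantile normalization (-0.0447) and without naive replicate 2, its changes with 1 library left out running from -0.0583 to 0.1646. Of 13793 genes, 575 were called, against 1145 with voom on the recovered reads and 271 with the replicate block, and 270 to 388 with 1 library left out. Same-numbered libraries did not deviate together (r of -0.084, -0.04 and -0.003 across genes), and differently numbered ones had r of -0.078 to 0.109. With 3 libraries per group this cannot show whether the numbers pair samples. The replicate block also gave 1 called Kupffer cell gene in place of 2 and 23 called genes of the other lists in place of 35. It gave 7 called classical monocyte genes in place of 8 and 6 general genes in place of 8. Leaving out 1 library gave 1 to 2 called Kupffer cell genes, 7 to 8 classical monocyte genes, 6 non-classical genes, 5 to 7 general genes and 24 to 30 genes of the other lists. Requiring a mean of at least 2 RPKM left 5 called general genes in place of 8 and 16 called genes of the other lists. It left 6 called classical monocyte genes in place of 8 and 4 non-classical genes in place of 6. Fewer genes were tested in that setting.

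The size of the median log2 change followed the scale. It was 0.30 for the Kupffer cell genes, 2.15 for the classical monocyte genes, 1.86 for the non-classical genes and 1.10 for the 10 tested general genes (0.95 with no filter, which adds Lpl). With a pseudocount of 0.1 the latter 3 were 3.17, 2.87 and 2.00, with 0.5 they were 2.53, 2.27 and 1.44, and with a mean of at least 2 RPKM they were 2.35, 2.10 and 1.86. With voom the 4 medians were 0.47, 3.36, 3.18 and 2.08. With 1 library left out they were 0.21 to 0.39, 2.11 to 2.18, 1.79 to 1.92 and 1.11 to 1.32. The Kupffer cell median was the lowest of the 4 in each of these settings. Depth limits the members with few naive reads, among them Ifitm6 (4 in all), Cd36 (6 to 20 per library), Chil3 (8 to 20), Cd300e (10 to 16) and Ear2 (14 to 21).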
